A study of Homo sapiens with 21 samples.

Results

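Wnt and beta-catenin target genes were followed as a set of 10 genes among the 53515 Ensembl genes counted in each library. The members were CTNNB1, AXIN2, NKD1, SP5, LGR5, RNF43, ZNRF3, LEF1, DKK1 and WNT5A. Each was found by matching its Ensembl identifier to its symbol in a GENCODE annotation of GRCh37, and all 10 matched. The rule takes the members by name and uses no threshold on their values.

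Bulk mRNA was sequenced from 17 human cancer cell lines in 21 libraries, 7 parental cell lines and 10 treatment-resistant cell lines derived from them by prolonged drug exposure in culture. The study asked about the part of DNA methylation and of an epithelial-to-mesenchymal transition in drug resistance. HepG2, a liver carcinoma line, is the parental cell line of HepG2S1 and HepG2S3, both resistant to sorafenib, an inhibitor of several kinases. PancVB, a Panc 03.27 pancreatic line, gave rise to PancB1Q and PancB1V, which resist 5-fluorouracil. The lung lines are HCC4006P1 with its erlotinib-resistant HCC4006ER, HCC4006P2 with its gefitinib-resistant HCC4006GR, and HCC827P with its gefitinib-resistant HCC827GR. The ovarian lines are UWB1.289, from which U10 and U100 were made with olaparib, and IGROV-1, whose derivative IGROV-1/CDDP resists cisplatin. Each of 4 lines (HepG2 and HepG2S3, HCC4006P1 and HCC4006ER) was sequenced in 2 libraries, and 13 lines were sequenced in 1. Whether 2 libraries of a line came from separate cultures is not stated, so p-values measure only the spread between these libraries, which may be technical. Resistant lines from the same parental line share its libraries, and a line is a cultured population whose clonality is not stated in the sources used here.

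In the absence of a Wnt signal, a destruction complex built on AXIN and APC marks beta-catenin, the product of CTNNB1, for degradation. Wnt ligands bound to Frizzled and LRP receptors stop this, and beta-catenin then enters the nucleus and acts through TCF and LEF factors on target genes. Many of the targets are themselves feedback inhibitors: AXIN2 rebuilds the destruction complex, NKD1 binds Dishevelled, RNF43 and ZNRF3 are ubiquitin ligases that remove Frizzled from the cell surface, and LGR5, a receptor of R-spondins, counteracts them. HepG2 is known for a heterozygous in-frame deletion in CTNNB1 that stabilises beta-catenin. Counts per gene do not show the deletion, and beta-catenin protein was not measured here.

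The libraries held between 9851195 (HepG2S1) and 36639473 (HepG2 replicate 1) counts on genes. Levels are given as CPM, a gene's count scaled to a fixed total of counts on genes. The floor of detection was set at 3 counts, which is 0.0819 CPM in the deepest and 0.305 CPM in the shallowest library. The intervals of levels were computed for each library by Wilson's method at 95%, and like the floors they cover counting error only. For a line with 2 libraries, the interval runs from the lowest to the highest limit of both. It thus also holds the spread between these libraries. In HCC4006P1 replicate 1, 0 of 1659 genes in a stretch from chromosome 7 to the end of the file's order had a count although replicate 2 held at least 50, and none of the members lies there. The loss raised the CPM of the other genes of that library by 22.1% (0.29 log2). Cell line markers were checked as well. The 8 liver markers summed to 38860 CPM in HepG2, with all 8 at 1 CPM or more, to 1.42 CPM in HepG2S1, with 0 of 8 at 1 CPM, and to 34.2 CPM in HepG2S3, with 5 of 8. ALB, SERPINA1, TTR, AFP and APOA1 had no count in HepG2S1. The 4 lung markers summed to 0.450 CPM in HCC4006P1 and 0.535 CPM in HCC4006ER, with none at 1 CPM, against 296 CPM in HCC4006P2 and 24.6 CPM in HCC4006GR. The 4 ovarian markers summed to between 417 and 665 CPM in the 5 ovarian lines, with 1 or 2 of 4 at 1 CPM, but also to 642 CPM in the lung line HCC827P and 274 CPM in HCC827GR. The 4 pancreas duct markers summed to 3224 CPM in PancVB, 1139 CPM in PancB1Q and 906 CPM in PancB1V, and did not single out these lines. Their sum in HepG2 was 348 CPM, against 2956 CPM for HepG2S1 and 3099 CPM for HepG2S3 (2 higher and 1 lower of 3 tested in each), and it was 4119 CPM in HCC4006P1 and 181 CPM in HCC4006ER (3 of 3 tested lower). Their part in the changes below was not tested. Of the 3 blood markers, at most 1 reached 1 CPM in any line.

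Promoter sequences are shown for 3 members that moved in different directions, SP5 (lower in both sorafenib-resistant lines), DKK1 (higher in both) and LEF1 (called higher in HepG2S3 only). They come from RefSeq on GRCh38.p14 and cover 250 bases before to 50 bases after the annotated start, 5′ to 3′ on the strand of the gene. Capitals mark CTTTGAA or CTTTGAT, the letters of a TCF/LEF core motif, searched on both strands, where the reverse complement reads TTCAAAG or ATCAAAG. SP5 is at chr2:170715087-170715386 (+), DKK1 at chr10:52314031-52314330 (+) and LEF1 at chr4:108166252-108166551 (-).
SP5: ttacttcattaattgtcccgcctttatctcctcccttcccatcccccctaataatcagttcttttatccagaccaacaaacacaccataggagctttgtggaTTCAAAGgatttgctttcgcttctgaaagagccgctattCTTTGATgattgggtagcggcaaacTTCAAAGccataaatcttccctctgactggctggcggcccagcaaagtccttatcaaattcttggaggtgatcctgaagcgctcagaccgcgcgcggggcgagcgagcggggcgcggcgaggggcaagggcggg
DKK1: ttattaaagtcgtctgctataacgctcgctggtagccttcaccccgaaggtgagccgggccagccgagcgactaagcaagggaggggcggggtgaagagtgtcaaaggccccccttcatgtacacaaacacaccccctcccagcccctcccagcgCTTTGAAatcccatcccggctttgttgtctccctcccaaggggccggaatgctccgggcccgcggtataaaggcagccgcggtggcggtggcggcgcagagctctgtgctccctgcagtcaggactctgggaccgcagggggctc
LEF1: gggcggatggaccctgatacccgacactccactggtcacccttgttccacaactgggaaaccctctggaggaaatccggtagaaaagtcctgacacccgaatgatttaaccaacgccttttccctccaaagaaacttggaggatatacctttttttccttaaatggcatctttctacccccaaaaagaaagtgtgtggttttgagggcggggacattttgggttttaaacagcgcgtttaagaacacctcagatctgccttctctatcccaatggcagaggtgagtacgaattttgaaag
The SP5 window held 3 matches, whose first bases lay at -148, -109 and -84 relative to the start, and the DKK1 window 1, at -95. Of 35116 windows of this length, 6.86% held at least 1 match and 9 windows (0.0256%) at least 3. LEF1, CTNNB1, both WNT5A windows and both RNF43 windows held 0 matches. AXIN2, NKD1, LGR5 and ZNRF3 had no entry. A match describes the letters in the window and does not show a bound site.

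In HepG2, the target genes were abundant, and in both sorafenib-resistant lines 7 of the 10 members were lower. AXIN2, NKD1, SP5 and LGR5, at means of 181, 438, 117 and 79.3 CPM in HepG2, fell below 1 CPM. RNF43, ZNRF3 and CTNNB1 also fell but stayed above 10 CPM. WNT5A and DKK1 were higher in both lines and LEF1 in HepG2S3. The quasi-likelihood test of edgeR on the 5 libraries of this family, with Benjamini-Hochberg adjustment and a threshold of 0.05, called 10 of 10 members in HepG2S3 against HepG2, 3 higher and 7 lower. Of 18341 genes tested, 27.7% were called higher, 32.8% lower and 60.4% in either direction. In HepG2S1 against HepG2 it called 9 of 10, 2 higher and 7 lower, where 22.3% of all genes were called higher, 25.0% lower and 47.3% in either direction. HepG2S1 had 1 library, so its p-values here and below assume that it varies like the other lines of the fit. Calls were thus frequent among all genes, so changes on the log2(CPM + 1) scale were ranked among genes with a mean of at least 1 CPM in the pair. In HepG2S3, 0.548% of genes had a change at least as low as AXIN2, 0.886% as SP5 and 0.922% as LGR5. For RNF43 this share was 4.19% and for ZNRF3 5.2%. A change at least as high was seen in 6.54% of genes for DKK1 and 13.1% for LEF1. NKD1, CTNNB1 and WNT5A follow below. In HepG2S1 the shares ran from 0.223% (NKD1) to 17.9% (DKK1), with LEF1, under 1 CPM there, left aside. In bulk RNA, fewer cells that express a gene and less RNA per cell cannot be told apart. The loss of the 8 liver markers, all called lower in both lines, moved with these changes, and its part in them was not tested.

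**Figure D1:**
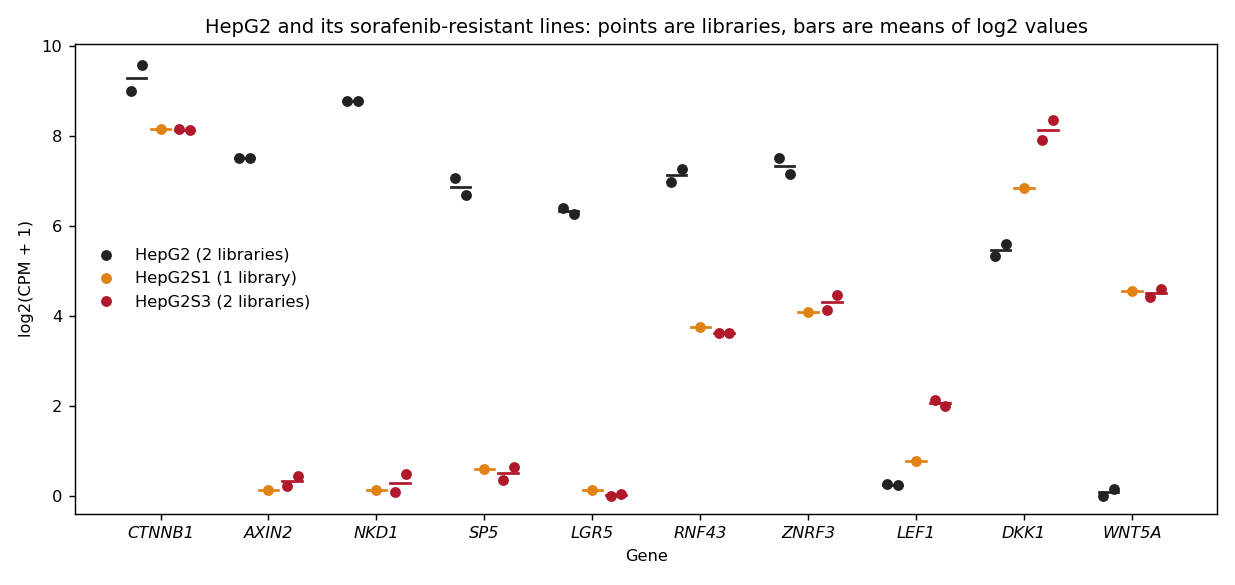
Level of each member on the log2(CPM + 1) scale in HepG2 (black), HepG2S1 (orange) and HepG2S3 (red), with 1 point per library and a bar at the mean of the log2 values. AXIN2, NKD1, SP5 and LGR5 go from between 6 and 9 in HepG2 to below 1 in both resistant lines, while DKK1 and WNT5A go up.

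AXIN2, the scaffold of the destruction complex that serves as the usual readout of the pathway, lies at 63524681 to 63557766 on the minus strand of chromosome 17 of GRCh37. It had 6638 and 6306 counts in the HepG2 libraries (181.2 and 181.0 CPM), 1 count in HepG2S1 (0.102 CPM), and 5 and 11 counts in HepG2S3 (0.156 and 0.359 CPM). The HepG2 libraries stood far above the resistant ones. The change in HepG2S3 was -9.84 (log2 fold change, SE 0.32, edgeR adjusted p = 2.56e-05). For HepG2S1, with its 1 count, the ratio of HepG2 to HepG2S1 was 1784 (counting interval 320.1 to 70459), and edgeR gave an adjusted p of 0.000123.

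NKD1, which restrains signalling at Dishevelled, lies at 50582307 to 50683160 on the plus strand of chromosome 16. Its 16026 and 15315 counts in HepG2 (437 and 439 CPM) compare with 1 count in HepG2S1 and 2 and 12 counts in HepG2S3 (0.0625 and 0.392 CPM). It made the largest step of the members with over 3 counts on each side, -11.30 in HepG2S3 (SE 0.52, edgeR adjusted p = 5.06e-05). Among 13877 genes with a mean of at least 1 CPM in the pair, 0.187% had a change at least as low on the log2(CPM + 1) scale. The HepG2 to HepG2S1 ratio was 4319 (counting interval 775 to 170593).

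SP5, a zinc-finger repressor that is a direct beta-catenin target, lies at 171571847 to 171574588 on the plus strand of chromosome 2. It had 4863 and 3531 counts in HepG2 (133 and 101 CPM), 5 counts in HepG2S1 (0.508 CPM) and 9 and 17 counts in HepG2S3 (0.281 and 0.555 CPM). The libraries of the parental and resistant lines did not overlap. The log2 fold change was -8.52 (SE 0.35, edgeR adjusted p = 4.22e-05) in HepG2S3 and -8.19 (SE 0.52, adjusted p = 0.000253) in HepG2S1. This is the promoter shown above with 3 motif matches.

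LGR5 lies at 71833578 to 71980090 on the plus strand of chromosome 12 and marks stem cells of several epithelia. It had 3037 and 2640 counts in HepG2 (82.9 and 75.8 CPM), 1 count in HepG2S1, and 0 and 1 count in HepG2S3. With so few counts only the ratio is given, 782 for HepG2 over HepG2S1 (counting interval 140.4 to 30905) and 4975 for HepG2 over HepG2S3 (893 to 196538). TSPAN8 overlaps LGR5 on the opposite strand, and since the strand setting of the counting is not given, reads of the pair cannot be fully told apart.

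The ubiquitin ligases fell less far and stayed detectable. RNF43, at 56431037 to 56494956 on the minus strand of chromosome 17, had 4597 and 5290 counts in HepG2 (125 and 152 CPM), 122 in HepG2S1 (12.4 CPM) and 361 and 344 in HepG2S3 (11.3 and 11.2 CPM). Its log2 fold change was -4.02 (SE 0.17, edgeR adjusted p = 4.37e-05) in HepG2S3 and -3.83 (SE 0.23, adjusted p = 0.000217) in HepG2S1. ZNRF3, its paralogue, at 29279560 to 29453476 on the plus strand of chromosome 22, went from 180 and 142 CPM to 15.9 CPM in HepG2S1 and to 16.4 and 21.1 CPM in HepG2S3. The log2 fold change was -3.50 (SE 0.21, edgeR adjusted p = 0.000118) in HepG2S3 and -3.68 (SE 0.30, adjusted p = 0.000505) in HepG2S1. Both ligases were thus lower in every resistant library of the family than in either HepG2 library.

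CTNNB1, at 41236232 to 41301587 on the plus strand of chromosome 3, encodes beta-catenin and, beside its role as coactivator, links cadherins to the cytoskeleton. Its level was 506 and 754 CPM in HepG2, 284 CPM in HepG2S1 and 282 and 279 CPM in HepG2S3. The HepG2 libraries differed by more than any of the resistant libraries did from each other. The log2 fold change was -1.57 (SE 0.22, edgeR adjusted p = 0.00199) in HepG2S3 and -1.50 (SE 0.28, adjusted p = 0.00837) in HepG2S1. In the log2(CPM + 1) values, 15.5% of genes had a change at least as low in HepG2S3.

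LEF1, a nuclear partner of beta-catenin, at 108968701 to 109090112 on the minus strand of chromosome 4, went the other way from low levels. It had 7 and 6 counts in HepG2 (0.191 and 0.172 CPM), 7 counts in HepG2S1 (0.711 CPM) and 109 and 91 counts in HepG2S3 (3.41 and 2.97 CPM). The change of 3.70 in HepG2S3 (SE 0.35, edgeR adjusted p = 0.000518) passed the test, and that of 1.60 in HepG2S1 (SE 0.55, adjusted p = 0.061) did not.

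DKK1, a secreted antagonist that binds the LRP co-receptors, at 54074041 to 54077802 on the plus strand of chromosome 10, was already present in HepG2 with 38.9 and 47.0 CPM. It reached 114 CPM in HepG2S1 and 240 and 327 CPM in HepG2S3. DKK1 rose by 2.32 on the log2 scale (SE 0.21, edgeR adjusted p = 0.000435) in HepG2S3 and by 1.05 (SE 0.24, adjusted p = 0.0162) in HepG2S1. Although it is a beta-catenin target by textbook knowledge and carries a motif match in the promoter shown, it did not move with AXIN2.

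WNT5A, a ligand known mainly for beta-catenin-independent signalling, at 55499743 to 55524567 on the minus strand of chromosome 3, had 0 and 4 counts in the HepG2 libraries. It had 221 counts in HepG2S1 (22.4 CPM) and 647 and 710 in HepG2S3 (20.2 and 23.2 CPM). The ratio of resistant to parental CPM was 401 (counting interval 154 to 1484) in HepG2S1 and 387 (151 to 1423) in HepG2S3, with edgeR adjusted p of 0.000412 and 0.000205. Of the genes with at least 1 CPM, 2.21% had a change at least as high in HepG2S3.

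The sorafenib-resistant lines were then compared with each other. In HepG2S1 against HepG2S3, edgeR called 0 of 10 members at an adjusted p under 0.05, where 0.622% of all genes were called, 0.529% higher and 0.0927% lower. At an unadjusted p under 0.05 there were 2 members and 2829 of 18341 genes, and DESeq2 called 1 member, DKK1, and 693 genes. DKK1 was lower in HepG2S1 by -1.27 (log2, SE 0.26, edgeR adjusted p = 0.133) and LEF1 by -2.11 (SE 0.46, adjusted p = 0.149). CTNNB1 differed by 0.07 (SE 0.26), RNF43 by 0.19 (SE 0.20), ZNRF3 by -0.19 (SE 0.25) and WNT5A by 0.10 (SE 0.42), none of which passed. Without HepG2 replicate 1 or replicate 2, only HepG2S3 keeps 2 libraries, and the spread of the fit rests on these alone. DKK1 and LEF1 were lower in HepG2S1 in these fits too, and their p-values are not given for this reason. At their low counts, AXIN2, NKD1, SP5 and LGR5 could not be compared closely.

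Set against the other 16 lines, the HepG2 levels stood apart for the feedback genes. AXIN2 in HepG2 was 15.7 times the level of U100, the next line, at 11.5 CPM, and 33.1 times that of PancVB, the highest other parental line. NKD1 was 102 times its level in IGROV-1/CDDP (4.31 CPM), SP5 20.7 times that in U100 (5.64 CPM), RNF43 6.27 times that in HCC4006P2 (22.1 CPM), LGR5 4.56 times that in HCC4006GR (17.4 CPM) and ZNRF3 2.01 times that in IGROV-1/CDDP (80.0 CPM). CTNNB1 was highest in HepG2 too, but the interval of PancVB, at 527 CPM, overlapped that of the HepG2 libraries. WNT5A and DKK1 ran otherwise. WNT5A was highest in HCC4006ER (63.1 CPM), with an interval that overlapped that of IGROV-1/CDDP (59.2 CPM), and DKK1 in PancVB (526 CPM), and HepG2 had less than the median of the other 16 lines, 16.7 and 97.0 CPM.

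**Figure D2:**
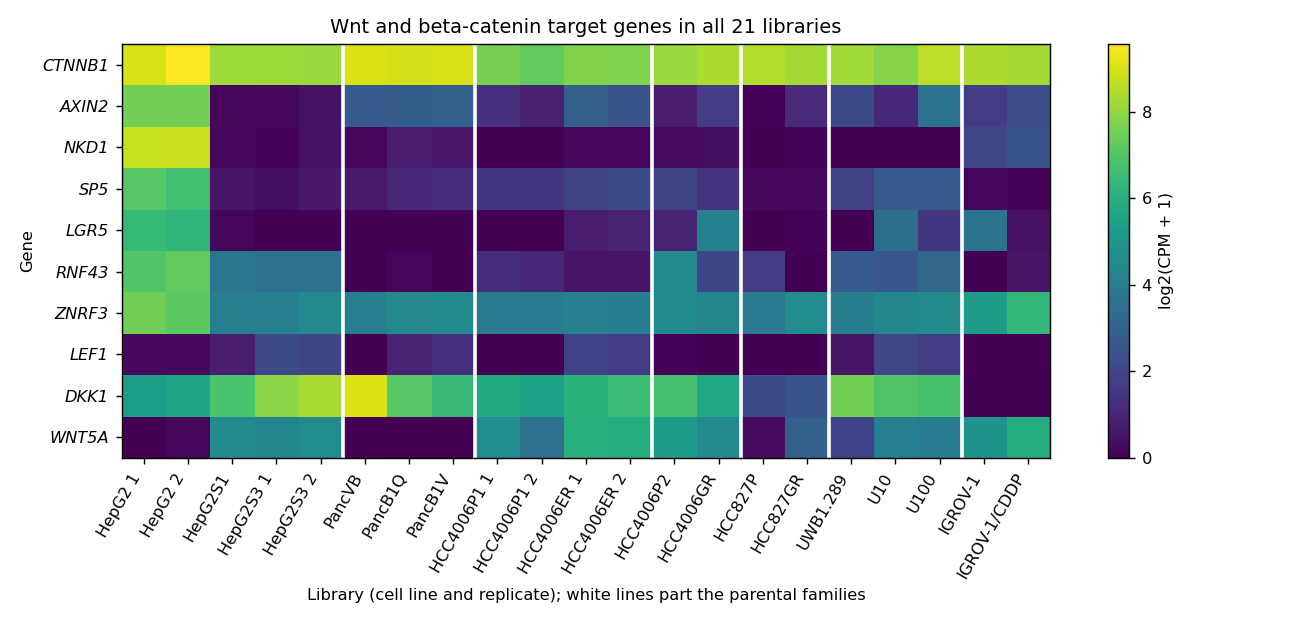
Level of the 10 members in all 21 libraries as log2(CPM + 1), with 1 column per library, the replicate number after lines with 2 libraries, and white lines between parental families. The HepG2 columns alone are bright for NKD1, SP5 and AXIN2, whereas CTNNB1 is high in every library.

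Apart from HepG2, the order of the lines was often not resolved. Between neighbours in the order of mean levels, the intervals overlapped in 14 of 16 cases for AXIN2, 14 for NKD1, 15 for SP5, 13 each for LGR5, RNF43 and ZNRF3, 16 for LEF1, 10 each for CTNNB1 and WNT5A and 9 for DKK1. For AXIN2, U100 was separated from PancB1V (6.76 CPM), and below it every line overlapped its neighbour down to HCC827P (0.0577 CPM). LEF1 had 0 counts in 5 lines and did not exceed 3.19 CPM, its level in HepG2S3. CTNNB1 and ZNRF3 were at 10 CPM or more in all 17 lines. Per kilobase of annotated exon, SP5 (56.4 CPM per kb) and CTNNB1 (53.6) were the most abundant members in HepG2, before AXIN2 (34.8), NKD1 (25.3), ZNRF3 (23.0), RNF43 (21.9), DKK1 (19.4) and LGR5 (15.2). In HepG2S3 on the same scale, DKK1 (128) led CTNNB1 (23.9) and WNT5A (3.03). This scale assumes reads over whole transcripts, and the methods name a 3′ end kit for some libraries without saying which.

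The lung pair HCC4006P1 and HCC4006ER was the other pair with 2 libraries on each side. There AXIN2, LGR5 and CTNNB1 were called in the direction opposite to that in HepG2S3. LEF1, DKK1 and WNT5A, called higher, and RNF43, called lower, had the same direction in both pairs. AXIN2 had 1.60 and 0.821 CPM in HCC4006P1 and 6.38 and 4.52 CPM in HCC4006ER. WNT5A had 23.4 and 11.0 CPM in HCC4006P1 and 66.9 and 59.2 CPM in HCC4006ER. For both genes the lines did not overlap. The first HCC4006P1 value of each gene, here and for CTNNB1 below, is raised by 22.1% through the stretch without counts. edgeR, on genes outside the stretch without counts, called 6 of 9 members tested higher and 1 lower, where 24.1% of 12791 genes were called higher, 24.9% lower and 49.0% in either direction, and DESeq2 called 5. AXIN2 rose by 2.24 (log2, SE 0.32, edgeR adjusted p = 0.00176), WNT5A by 1.97 (SE 0.24, adjusted p = 0.000911) and DKK1 by 0.72 (SE 0.16, adjusted p = 0.0104). LEF1 had 0 counts in both HCC4006P1 libraries and 56 and 43 in HCC4006ER, at least 32.1-fold higher against a floor of 3 counts over the line, and LGR5 had 0 and 0 against 13 and 18 counts, at least 10.1-fold higher. CTNNB1 went from 193 and 152 to 212 and 210.5 CPM, and its rise of 0.35 (SE 0.11, adjusted p = 0.0358) was lost with DESeq2 (adjusted p = 0.0777). RNF43, with 26 and 22 counts in HCC4006P1 and 9 and 9 in HCC4006ER, fell by 1.39 (SE 0.35, edgeR adjusted p = 0.0173), which was also lost with DESeq2 (adjusted p = 0.147). SP5 (0.73, SE 0.29, edgeR adjusted p = 0.0788) and ZNRF3 (0.24, SE 0.18, adjusted p = 0.305) did not pass, and NKD1, with 0 to 3 counts per library, was not tested. With a library left out, only 1 of the lines keeps 2 libraries, and the spread of the fit rests on these alone. Whether CTNNB1, RNF43, DKK1, ZNRF3 and SP5 passed changed with the library left out, and the p-values of these fits are not given for this reason. With all genes in the fit, DKK1 (0.0893) and CTNNB1 (0.0776) did not pass, nor did CTNNB1 without a filter on low counts (0.0731). The 6 fibroblast markers summed to 18.9 CPM in HCC4006P1 and 1536 CPM in HCC4006ER, and to 24.9, 563 and 406 CPM in HepG2, HepG2S1 and HepG2S3. In the HepG2 family DCN and LUM made up most of this, COL1A1 and PDGFRB were not called and COL1A2 was not tested. The part of these markers in the changes was not tested.

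The difference between the HepG2S3 and HCC4006ER changes was itself tested in 1 edgeR fit of the 8 libraries. All 10 members were called, 2 with the larger change in HepG2S3 (DKK1 and WNT5A) and 8 with the lower one. Of 14478 genes, 28.2% and 27.7% were called. The difference was -11.97 for AXIN2 (log2, SE 0.43, adjusted p = 1.55e-07), -9.13 for SP5 (SE 0.43, adjusted p = 5.08e-07), -3.62 for ZNRF3 (SE 0.28, adjusted p = 8.83e-06), -2.52 for RNF43 (SE 0.34, adjusted p = 0.000284) and -1.81 for CTNNB1 (SE 0.26, adjusted p = 0.000442). For WNT5A, higher in both pairs, it was 6.23 (SE 0.67, adjusted p = 6.86e-05). LEF1 and LGR5 were at 0 in HCC4006P1, so that only their adjusted p are given, 0.00964 and 1.06e-06. On the log2(CPM + 1) scale LEF1 rose by 1.83 in HepG2S3 and by 1.82 in HCC4006ER. Its call depends on the low counts of both parental lines, 13 in HepG2 and 0 in HCC4006P1. NKD1 had 0 to 3 counts per library in the HCC4006 pair.

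In the other pairs with 1 library per line there was no replicate check. Changes are on the log2(CPM + 1) scale, which understates those of low genes, with counting intervals, and a change of at least 1 was counted. On this scale the 3 replicated or partly replicated pairs had 2 higher and 7 lower in HepG2S1 (background 25.8% and 18.3%), 3 and 7 in HepG2S3 (27.5% and 17.4%) and 3 and 0 in HCC4006ER (10.4% and 12.4%). The counts were 0 higher and 1 lower in PancB1Q (background 6.14% and 9.41%), 1 and 1 in PancB1V (8.72% and 7.24%), 1 and 2 in HCC4006GR (7.67% and 7.48%), 2 and 1 in HCC827GR (10.5% and 7.79%), 3 and 1 in U10 (6.36% and 5.01%), 4 and 0 in U100 (6.37% and 1.76%) and 1 and 1 in IGROV-1/CDDP (5.5% and 7.19%). The counts take all 10 members, whereas the background takes only genes with a mean of at least 1 CPM in the pair. Among members at that level, PancB1V had 0 higher and 1 lower of 5, HCC827GR 1 and 1 of 5, and U100 3 and 0 of 8. In the other lines the counts were the same, with 4 to 10 members at that level. Over all genes with at least 1 CPM, the median change was 0.23 for HepG2S1 and 0.28 for HepG2S3. It was -0.10 for PancB1Q and within 0.1 of 0 for the other lines. With TMM-scaled library sizes, 2 of 100 changes took the other sign, CTNNB1 in PancB1Q (-0.09 against 0.13) and in PancB1V (-0.05 against 0.03).

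**Figure D3:**
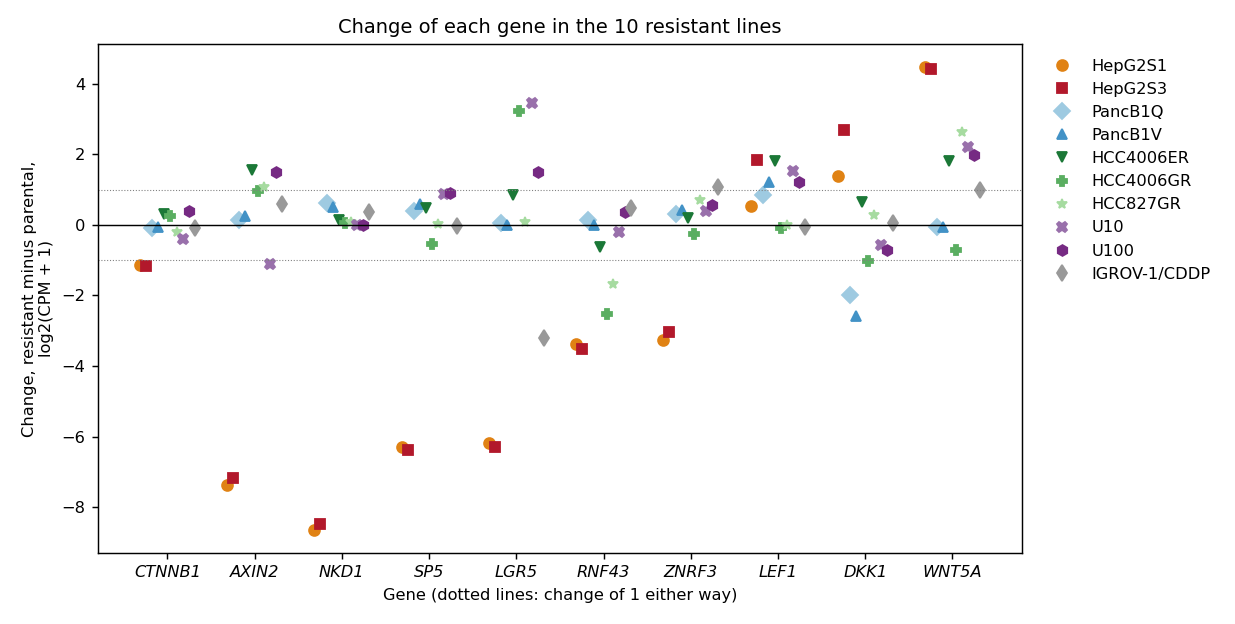
Change of each member in the 10 resistant lines, resistant minus parental, on the log2(CPM + 1) scale, with 1 symbol per resistant line and dotted lines at 1 either way. The HepG2 lines lie below -6 for AXIN2, NKD1 and SP5, where the other lines lie between -1.10 and 1.54. WNT5A lies above 1 in both HepG2 lines, HCC4006ER, HCC827GR, U10 and U100, and at 0.98 in IGROV-1/CDDP.

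Gene by gene, WNT5A was higher by at least 1 in the resistant lines of HepG2, HCC4006P1, HCC827P and UWB1.289, and by less than 1 in IGROV-1/CDDP. It was higher by 4.47 in HepG2S1 and 4.42 in HepG2S3, by 1.82 in HCC4006ER, by 2.63 in HCC827GR (from 4 to 103 counts), by 2.20 in U10 (32 to 167 counts), by 1.98 in U100 (181 counts) and by 0.98 in IGROV-1/CDDP (811 to 1497 counts). It was lower in HCC4006GR, by -0.70 (counting interval -0.89 to -0.52), and the pancreatic lines had 1, 0 and 0 counts. Of the genes with at least 1 CPM, 0.889% in U10 and 0.942% in U100 had a change at least as high as WNT5A. This share was 1.56% in HCC827GR, 4.48% in HCC4006ER and 5.71% in IGROV-1/CDDP. AXIN2 ran in both directions within the ovarian pairs, from 40 counts in UWB1.289 to 11 in U10 (-1.10, counting interval -1.62 to -0.50) and to 151 in U100 (1.49, 1.08 to 1.89). AXIN2 was also higher in HCC827GR (19 counts against 1, a ratio of 21.2 with a counting interval of 3.37 to 880), in HCC4006GR (0.97, 0.43 to 1.43) and in IGROV-1/CDDP (0.59, 0.26 to 0.93). In the pancreatic pairs its changes of 0.13 and 0.26 lay within counting error.

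LGR5 showed the widest range outside HepG2. It went from 13 to 263 counts in HCC4006GR (3.23, counting interval 2.77 to 3.60) and from 325 to 10 counts in IGROV-1/CDDP (-3.20, -3.45 to -2.86). Against 0 counts in UWB1.289, the 103 counts of U10 were at least 38.9-fold higher and the 24 of U100 at least 7.09-fold. A change at least as high was seen in 0.153% of genes in U10 and 0.627% in HCC4006GR. LEF1 went from 5 to 32 counts in U10 (1.53, counting interval 0.92 to 2.00) and to 30 in U100 (1.20, 0.61 to 1.67), and from 1 count in PancVB to 25 in PancB1Q and 36 in PancB1V, ratios of 19.0 (3.11 to 781) and 31.5 (5.30 to 1278). It stayed at 0 or 1 counts in the HCC4006P2, HCC827P and IGROV-1 pairs.

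DKK1 was lower in the pancreatic pairs, from 526 CPM to 132 CPM in PancB1Q (-1.98, counting interval -2.03 to -1.93) and 87.4 CPM in PancB1V (-2.57, -2.64 to -2.51), where 0.887% of genes had a change at least as low. It was also lower in HCC4006GR (-1.02), U10 (-0.56) and U100 (-0.71). With 0 and 1 counts it was not detected in the IGROV-1 pair, although by Wilson's interval 0 counts allow up to 0.140 CPM in IGROV-1. RNF43 went from 301 to 45 counts in HCC4006GR (-2.54, counting interval -2.88 to -2.18), where 0.607% of genes had a change at least as low. In HCC827GR it went from 38 to 0 counts, at least 11.4-fold lower. ZNRF3 was higher in IGROV-1/CDDP, from 37.6 to 80.0 CPM (1.07, 0.96 to 1.18) and moved by less than 1 in the other lines outside the HepG2 family. NKD1 was at or near the floor outside HepG2 except in the IGROV-1 pair (87 and 109 counts) and in the resistant pancreatic lines (19 and 14 counts). SP5 went from 2.58 CPM in UWB1.289 to 5.56 in U10 (0.87, 0.38 to 1.35) and 5.64 in U100 (0.89, 0.42 to 1.34). CTNNB1 moved by at most 0.40 outside the HepG2 family.

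Over 7 resistant and 7 parental profiles, summed per parental line with the parental line as a block, edgeR called 0 of the 7 members tested and 0 of 15847 genes (0.0% in each direction). With HCC4006P1 and HCC4006P2 taken as 1 parental line, these counts were the same. At an unadjusted p under 0.05 there were 0 members and 722 genes, and DESeq2 called 0 members and 106 genes. LEF1, LGR5 and NKD1 did not pass the filter on low counts. WNT5A had the largest value, 2.41 (log2, SE 1.11, edgeR adjusted p = 0.984). AXIN2 was at 0.98 (SE 1.21). Leaving out the HepG2 lines turned CTNNB1 from -0.13 to 0.086 and SP5 from -0.25 to 0.41.

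The rest of the pathway was counted in lists of known genes, some of which appear in more than 1 list. For every list, the shares of all genes to set beside the counts are 27.7% higher and 32.8% lower in HepG2S3. In HepG2S1 they are 22.3% and 25.0%. Among Wnt ligands and their export factors, 11 of 20 were tested in HepG2S3 against HepG2, 5 higher and 2 lower, against 27.7% and 32.8% of all genes. WLS, the carrier that brings Wnts to the cell surface, went from 0.182 to 69.8 CPM (8.15, SE 0.60, edgeR adjusted p = 0.000218), and WNT10B from 0.658 to 14.7 CPM. WNT5B, with 3 counts in HepG2, went from 0.0420 to 1.55 CPM, and WNT6 from 0.643 to 0.0479 CPM. In HepG2S1 6 ligands and export factors were higher and 1 lower. Of the receptors, 18 of 19 were tested, 5 higher and 8 lower in HepG2S3, and 5 and 6 in HepG2S1. ROR2, a receptor for WNT5A, had 1 count in HepG2 (0.0140 CPM) and 57.3 CPM in HepG2S3, and FZD2 went from 0.168 to 27.3 CPM (6.92, SE 0.31, adjusted p = 4.66e-05). KREMEN1, a DKK receptor, fell from 76.5 to 1.84 CPM and FZD5 from 210 to 8.75 CPM. RSPO3 was the only R-spondin of 4 that could be tested, with 0 counts in HepG2 and 154 in HepG2S3, at least 58.6-fold higher.

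Of the 11 secreted inhibitors besides DKK1, 6 were tested, of which 1 was higher and 5 lower in HepG2S3, and 1 and 3 in HepG2S1. NOTUM, an enzyme that inactivates Wnts and is itself a target, fell from 477 to 2.84 CPM (-7.79, SE 0.19, edgeR adjusted p = 1.94e-05). SFRP5 went from 3.48 to 0.0319 CPM. APCDD1 and DKK4, both targets, had 97 and 71 counts in HepG2 and 0 in HepG2S3, at least 28.3-fold and 20.7-fold lower. The 14 destruction complex and relay genes were all tested, 0 higher and 5 lower in HepG2S3 and 1 and 3 in HepG2S1. The lower calls were about as frequent as among all genes. Changes here were small apart from NKD2 (6.13 to 0.0638 CPM), with -1.05 for DVL1, -0.82 for DVL3 and -0.61 for AXIN1. These fold changes are TMM-scaled, and by CPM the falls were smaller. DVL1 went from 97.1 to 61.6 CPM, DVL3 from 121.9 to 90.7 CPM and AXIN1 from 65.7 to 56.7 CPM. NKD2 was not called in HepG2S1, at 7.21 CPM.

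Of 12 nuclear factors, 4 were higher and 6 lower in HepG2S3, and 4 and 4 in HepG2S1. TCF7, a partner of beta-catenin that is also its target, fell from 45.8 to 0.399 CPM (-7.23, SE 0.24, edgeR adjusted p = 2.61e-05) and CTNNBIP1, an inhibitor of the partnership, from 41.5 to 11.7 CPM. The corepressors TLE2 and TLE4 rose in HepG2S3, by 3.50 and 2.08, but TLE4 was not called in HepG2S1 (-0.22, edgeR adjusted p = 0.689). Of the other beta-catenin target genes, 11 of 12 were tested, 1 higher and 9 lower in HepG2S3 and 1 and 8 in HepG2S1. TNFRSF19 fell from 191 to 0.160 CPM and PROX1, a hepatocyte transcription factor, from 207 to 0.191 CPM, while CD44, a hyaluronan receptor, rose from 0.0699 to 160 CPM. Of 8 liver target genes, 0 were higher and 6 lower in HepG2S3 as in HepG2S1. GLUL, the glutamine synthetase of hepatocytes around the central vein, fell from 452 to 4.60 CPM (-7.01, SE 0.26, adjusted p = 3.24e-05), and SLC1A2 and RHBG fell by 6.99 and 6.61 on the log2 scale. LECT2 had 115 counts in HepG2 and 0 in HepG2S3, at least 33.6-fold lower.

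The adherens complex partners of beta-catenin gave 2 higher and 3 lower of 6 in HepG2S3, and 1 and 2 in HepG2S1. CDH1, E-cadherin, fell from 143 to 0.527 CPM (-8.48, SE 0.40, edgeR adjusted p = 5.4e-05) and CTNND1 by 1.61, while JUP, the plakoglobin that can stand in for beta-catenin, rose by 0.84 (SE 0.13, adjusted p = 0.00288). CDH3, with 3 counts in HepG2, went from 0.0420 to 8.36 CPM in HepG2S3, and was not called in HepG2S1, also with 3 counts (edgeR adjusted p = 0.244).

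**Figure D4:**
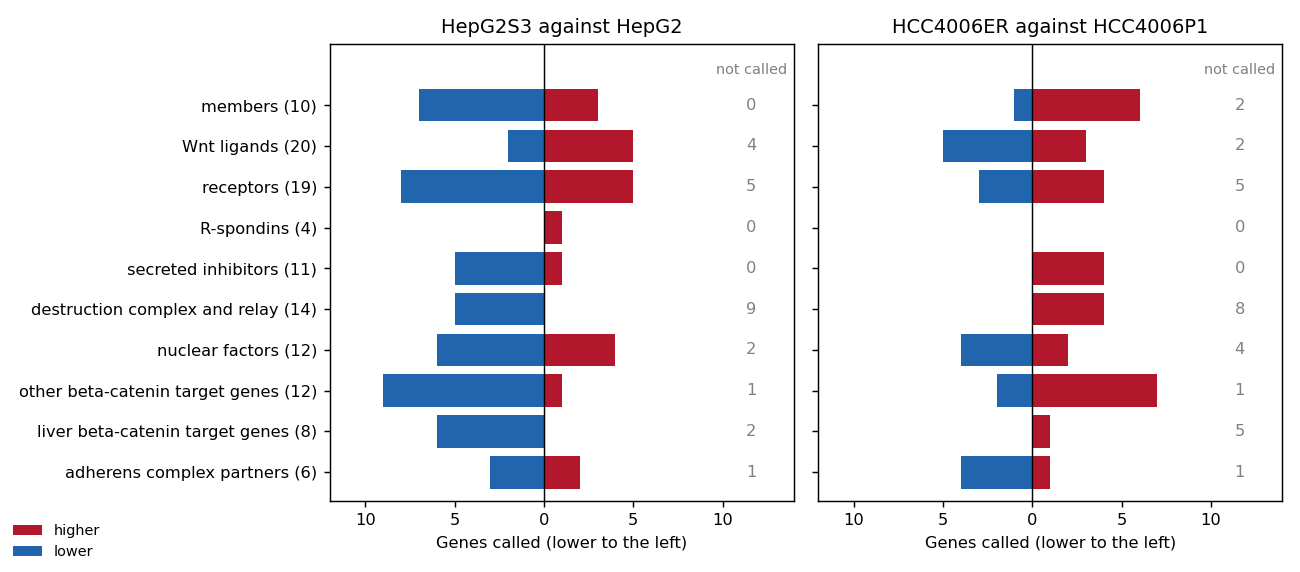
Number of genes called higher (red, to the right) and lower (blue, to the left) by edgeR in each list, with the list size in parentheses and the number tested but not called in grey, for HepG2S3 against HepG2 (left) and HCC4006ER against HCC4006P1 (right). Other beta-catenin target genes were mostly lower in HepG2S3 (9 of 11 tested) and mostly higher in HCC4006ER (7 of 10 tested).

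In HCC4006ER, 7 of 10 other target genes tested were higher and 2 lower, and all 4 secreted inhibitors tested were higher, against 24.1% and 24.9% of all genes. Wnt ligands were 3 higher and 5 lower of 10 tested, receptors 4 and 3 of 12, destruction complex and relay genes 4 and 0 of 12, nuclear factors 2 and 4 of 10, liver targets 1 and 0 of 6, and adherens partners 1 and 4 of 6. None of the R-spondins was tested there.

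Of the pathway genes, 27 were at 10 CPM or more in all 17 lines, and the most abundant were CCND1 (144 to 1155 CPM), CTNNA1 (182 to 807 CPM) and CTNND1 (134 to 639 CPM). CCND1, a cyclin of the G1 phase, had its lowest level in HepG2S3. The genes whose log2(CPM + 1) over the 17 lines was most like that of AXIN2, among 14618 genes, were PROX1 (Pearson r = 0.88), ASGR1 (0.88), GAS2 (0.86), MASP2 (0.86) and HDAC11 (0.86). Of the members, NKD1 had r = 0.79, SP5 0.79, ZNRF3 0.70, CTNNB1 0.64, LGR5 0.55, RNF43 0.31, DKK1 0.08 and WNT5A -0.40. These values describe 17 lines that share parental lines, and HepG2 decides most of them. Without HepG2, r over 16 lines was 0.20 for NKD1, 0.34 for SP5, 0.02 for LGR5, -0.47 for RNF43 and 0.63 for PROX1.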

How the data were processed

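The authors deposited raw counts of reads per gene, which per the labels and the submitters' notes came from HTSeq after mapping to hg19 by Bowtie and TopHat, whose versions are not given in the sources used here. The paper's methods name either a KAPA stranded mRNA kit or a QuantSeq 3′ kit, and TopHat or STAR, without saying which library got which, and HTSeq's strand setting is not given. Rows that name no gene held 28.0 to 42.8% of reads and were left out. Each library was scaled to CPM by its gene total (9851195 to 36639473), and a pseudocount of 1 CPM was used for changes between lines. Of 53515 identifiers, 45100 (84.3%) matched GENCODE on GRCh37.

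Tests were edgeR 4.0.16 quasi-likelihood tests (TMM, filterByExpr, Benjamini-Hochberg adjusted p under 0.05) in R 4.3.3, fitted on all genes. HepG2, HepG2S1 and HepG2S3 shared a fit. The HCC4006 pair was tested outside the stretch without counts in HCC4006P1 replicate 1, and that library was left out of the fit over 7 parental lines. Pairs with 1 library in both lines have no test. The fits were tested on simulated data. Alternatives were DESeq2 1.42.0, no filter, other samples or genes in the fit, the replicate block, a pseudocount of 0.1 CPM, TMM-scaled library sizes and each replicate library left out. The members and the lists were chosen with earlier results of these data known. Pathway genes named are up to 4 per list with the largest change among those called in HepG2S3 against HepG2, the 3 most abundant at 10 CPM or more in every line, and the 5 genes most like AXIN2. Promoters came from a RefSeq table on GRCh38.p14. Tables and figures were made in Python 3.11.15 (pandas 2.3.3, numpy 2.4.6, scipy 1.17.1, matplotlib 3.10.9).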

Additional observations from a re-analysis of the deposited data

Results flagged for a closer look

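The changes of 5 members in the HepG2 lines, as the mean over HepG2S1 and HepG2S3 on the log2(CPM + 1) scale, lay far from those of the other 6 parental lines by Dixon's criterion. They were -7.27 for AXIN2 (others 0.20 to 1.54), -8.56 for NKD1 (0.00 to 0.56), -6.33 for SP5 (-0.53 to 0.88), -3.14 for ZNRF3 (-0.25 to 1.07) and -1.16 for CTNNB1 (-0.19 to 0.29). Nominally, chance gives such a mark in about 1 in 20 groups, a group being 1 gene with both ends examined. This rate assumes independent values and genes chosen without knowledge of these data. Neither holds here, since HCC4006P1 and HCC4006P2 are both HCC4006 and the members were chosen with earlier results known. No comparison with chance is thus drawn. The mark was found at 5 of the 20 extreme values, 2 per member. The largest fall open to a line on this scale is set by its starting level. For AXIN2, NKD1 and SP5 the highest level in another parental line was 5.48, 3.17 and 2.94 CPM, against 181, 438 and 117 CPM in HepG2. No other line could thus fall as far, and the marks of these 3 depend on the high level in HepG2. LGR5 and RNF43 also fell most in the HepG2 lines but did not stand apart by this criterion.

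A difference between the HepG2S3 and HCC4006ER changes was called for all 10 members in edgeR's test of the interaction. The difference on the log2 scale was -1.81 for CTNNB1, -11.97 for AXIN2, -13.32 for NKD1, -2.52 for RNF43, -3.62 for ZNRF3, 1.71 for DKK1, 6.23 for WNT5A and -9.13 for SP5. For LEF1 and LGR5, at 0 counts in HCC4006P1, the adjusted p was 0.00964 and 1.06e-06. On the log2(CPM + 1) scale LEF1 rose alike in both pairs, by 1.83 and 1.82. NKD1 had 0 to 3 counts per library in the HCC4006 pair.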

How the results depend on the processing

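Under the alternatives, 203 counts were within 1.5 times the main count and 37 were not. The 7 lower and 3 higher members of HepG2S3 against HepG2, and the 7 lower and 2 higher of HepG2S1, had the same counts of calls under every alternative of the edgeR and DESeq2 tests run. On the log2(CPM + 1) scale, leaving out a library gave 6 to 7 lower in each. Test fits with a library left out hold 1 library in that line and take their spread from the remaining replicated lines. Leaving out libraries gave 3327 to 6224 genes higher and 3914 to 7084 lower in HepG2S3 against HepG2. In HepG2S1 against HepG2S3 it gave 31 to 2353 higher, 3 to 2768 lower and 0 to 2 members lower. In HCC4006ER it gave 3 to 8 members higher, 0 to 1 lower, 1990 to 4181 genes higher and 2061 to 4210 lower. DESeq2 called 1 member lower, 350 genes higher and 343 lower in HepG2S1 against HepG2S3, 0 members lower in HCC4006ER, and 85 genes higher and 21 lower over 7 parental lines. A fit of all lines gave 1 member lower, 277 genes higher and 258 lower in HepG2S1 against HepG2S3. All genes, the empty stretch included, gave 1673 higher and 1744 lower in HCC4006ER. A pseudocount of 0.1 CPM gave 3 members higher in PancB1Q, PancB1V and IGROV-1/CDDP, 2 in HCC4006GR and 1 lower in HCC4006ER. TMM-scaled library sizes gave 1 member higher in HepG2S1, 2 in IGROV-1/CDDP and 1 lower in HCC4006GR. Directions turned, none of them called, for CTNNB1 (-0.013 without a filter, -0.033 in a fit of all lines), WNT5A (-0.00040 in that fit), SP5 (-0.070 to 0.88 when a library was left out) and NKD1 (-1.84 to 0.69 likewise) in HepG2S1 against HepG2S3, and over 7 parental lines for DKK1 (0.0079 without a filter), CTNNB1 (0.086) and SP5 (0.41), the last pair without the HepG2 lines. The causes were not tested.

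The letters A and B only share a number, since by the titles each of HepG2 and HepG2S3 has 1 replicate number for both of its libraries. The deviations of same-lettered libraries correlated across genes with r = 0.0501 (HepG2 with HepG2S3) and 0.41 (HCC4006P1 with HCC4006ER). With the letter as a replicate block, edgeR called 3 members higher and 7 lower in HepG2S3 (5279 and 5282 of all genes) and 7 higher and 1 lower in HCC4006ER (3873 and 3914), SP5 (adjusted p = 0.034) being added, and 2 and 8 in the difference between the pairs (4164 and 4035). Genes with under 10 counts in a line, such as AXIN2 and LGR5 in HepG2S1, are limited by depth.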
